A study of Mus musculus with 39 samples.

Results

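The genes described here work in mitosis and in the G2/M transition that leads to it, and their transcripts were measured in pancreatic islets of pregnant, post partum and transgenic mice. The set has 53 gene symbols, and a gene was taken as measured where a probe set of the array carries that symbol and no other. Of these, 52 genes were measured among 19938 genes in all; Ccnb1 was not analysed here. Top2a is the 1 member with 2 such probe sets, and the brighter was used. The other Top2a probe set was dim, with mean levels of 2.50 at day 9.5 and 2.65 in non-pregnant islets.

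The series holds 39 one-colour Affymetrix Mouse Gene 1.0 ST arrays, each hybridised with total RNA of isolated islets and labelled as a separate biological replicate. Pdx1-creLate mice and their wild type littermates (called control littermates), neither labelled as pregnant, gave 4 arrays each. The labels put the line at backcross generation 8 and state no sex for either group. Wild type C57bl6/J mice were sampled without pregnancy (females, 4 arrays), at pregnancy days 3.5 (3 arrays), 6.5, 9.5, 12.5, 15.5 and 18.5 (4 arrays each), and 10 days post partum, while lactating (4 arrays). Pdx1-creLate is a line in which a Pdx1 promoter drives Cre recombinase, mainly in beta cells, and the line is known from the literature to carry a human growth hormone minigene as well. The labels do not say whether an array holds islets of 1 mouse or of several. All values are log2 levels, so a difference of 1.00 is a 2-fold difference, and a gene was called where the adjusted p of limma (a linear model fitted across all 19938 genes, Benjamini-Hochberg adjustment) was under 0.05. In whole islets, more dividing cells and more transcript per dividing cell cannot be told apart.

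A dividing cell copies its DNA in S phase, passes through G2 and then segregates its chromosomes in mitosis. Cyclin A and cyclin B activate the kinase CDK1, condensins and topoisomerase II shape the chromosomes, the kinetochore ties them to spindle microtubules, and the anaphase-promoting complex and the cytokinesis proteins end the division. Beta cells of adult mice divide rarely, and pregnancy is a well-known state in which they divide more, through lactogenic hormones that act on the prolactin receptor. Many genes of this set are known targets of the MuvB complexes, which bind the cell cycle homology region (CHR), often with nearby CCAAT boxes that bind NF-Y.

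The promoters of the members show these letters directly. RefSeq promoter windows (mouse build GRCm38.p6, 250 bases before to 50 bases after the start) were matched for 43 of the 52 members. The letters TTTGAA or TTCGAA, taken as the CHR, were searched on both strands and stood in 34 of these 43 members (79.1%), against 21.7% of 27025 genes with a window and 19.0% of the 15563 of those measured here. CCAAT, on either strand, stood in 30 members (69.8%), against 41.1% of all genes. Both sets of letters stood in 27 members (62.8%), against 8.61% of all genes; they overlapped each other in 1 window. The E2F letters TTTGGCGC or TTTCCCGC were rarer, in 3 members (6.98%) and 1.8% of all genes. A match is a description of the letters and not a bound site. The 150 bases before the start that the window uses are shown for the 6 members Top2a, Prc1, Kif11, Mki67, Cdk1 and Cdc20, which hold both sets of letters and appear repeatedly in the results. They are also shown for Mybl2, which holds neither in its window and was not called on any day. Capitals mark CHR and CCAAT letters on either strand (TTCAAA is the complement of TTTGAA, while ATTGG is that of CCAAT), and each sequence reads 5′ to 3′ on the strand of its gene.
Top2a: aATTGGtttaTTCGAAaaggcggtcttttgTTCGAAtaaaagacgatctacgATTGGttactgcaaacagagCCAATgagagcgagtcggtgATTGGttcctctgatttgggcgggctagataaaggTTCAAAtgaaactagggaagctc
Prc1: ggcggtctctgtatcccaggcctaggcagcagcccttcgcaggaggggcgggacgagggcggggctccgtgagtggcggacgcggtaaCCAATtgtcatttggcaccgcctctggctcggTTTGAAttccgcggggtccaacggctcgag
Kif11: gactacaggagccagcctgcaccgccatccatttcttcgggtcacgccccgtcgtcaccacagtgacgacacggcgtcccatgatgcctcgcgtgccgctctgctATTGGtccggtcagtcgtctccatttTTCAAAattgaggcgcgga
Mki67: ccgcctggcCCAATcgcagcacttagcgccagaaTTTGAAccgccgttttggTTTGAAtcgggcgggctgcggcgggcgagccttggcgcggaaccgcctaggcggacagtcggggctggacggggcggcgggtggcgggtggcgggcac
Cdk1: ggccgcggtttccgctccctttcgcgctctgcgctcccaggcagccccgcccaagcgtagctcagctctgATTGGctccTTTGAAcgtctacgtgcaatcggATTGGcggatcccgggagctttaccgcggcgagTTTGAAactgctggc
Cdc20: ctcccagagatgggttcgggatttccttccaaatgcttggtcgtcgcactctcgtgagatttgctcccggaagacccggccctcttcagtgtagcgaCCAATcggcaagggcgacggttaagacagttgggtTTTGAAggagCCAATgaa
Mybl2: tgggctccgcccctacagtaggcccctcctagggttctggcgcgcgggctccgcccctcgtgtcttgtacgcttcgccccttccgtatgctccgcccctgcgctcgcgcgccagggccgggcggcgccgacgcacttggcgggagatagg
The stretches lie at chr11:99024190-99024339 (minus strand) for Top2a, chr7:80294326-80294475 (plus strand) for Prc1, chr19:37376232-37376381 (plus strand) for Kif11, chr7:135716380-135716529 (minus strand) for Mki67, chr10:69352913-69353062 (minus strand) for Cdk1, chr4:118437344-118437493 (minus strand) for Cdc20 and chr2:163054485-163054634 (plus strand) for Mybl2. The Mybl2 stretch lies inside the span of that gene (chromosome 2, 163054327 to 163084688), so the bases before that span were not searched. Those of Top2a, Prc1 and Mki67 reach into their gene spans in part.

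The share of members with these letters was also set beside the size of the response at pregnancy day 9.5. The 27 members with both sets of letters had a median day 9.5 difference from non-pregnant islets of 0.93, and all 27 were called higher, as were 11.6% of all genes. The 7 members with the CHR alone had a median of 0.58, with 6 called, and the 3 with CCAAT alone 0.83, with 3 called. The 6 members with neither had a median of 0.59, with 5 called, and the 9 members without a window had 0.85, with 8 called. These classes were compared by description only.

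Arrays had median levels of 5.8 to 6.0 over all probe sets, and correlations between arrays over the 19938 genes were 0.9728 to 0.9956. Islet identity was clear: the mean over 9 beta cell markers was 11.1 to 11.5 in the 10 groups. The mean over 19 measured acinar (exocrine) markers differed most between arrays, from 5.56 to 10.5, and was lowest on day 3.5 replicate 1 (5.56) and day 9.5 replicate 1 (6.47). At day 9.5 against non-pregnant islets, 3 of 9 beta cell markers were higher and 1 lower, 1 of 19 acinar markers was higher, and 0 of 6 alpha, delta and PP cell and 0 of 8 duct cell markers were called. Of the other marker lists, 2 of 12 macrophage markers were higher, 2 of 11 lymphocyte markers and 1 of 12 stellate and fibroblast markers were lower, and 0 of 12 endothelial and 0 of 4 erythroid markers were called. In the same comparison 11.6% of all genes were higher and 7.74% lower, which is the background to these marker counts. The macrophage mean was 6.13 to 6.34 at day 9.5 and 5.98 to 6.17 in non-pregnant islets, and the lymphocyte mean was 4.67 to 4.99 at day 9.5 and 4.95 to 5.06 in non-pregnant islets. The part of these cell types in the mitosis genes was not tested. The spread of levels over all genes on an array (SD) was also wider at day 9.5, 1.87 to 1.95, than in non-pregnant islets, 1.76 to 1.84, with no overlap.

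Mitosis genes of islets rose in the first part of pregnancy, were highest at day 9.5 and then declined towards the level of non-pregnant islets. The mean over the 52 members on each array was 5.21, 5.26, 5.29 and 5.26 in non-pregnant islets and 5.50, 5.20 and 5.22 at day 3.5. It was 5.69, 5.63, 5.75 and 5.59 at day 6.5 and 6.03, 6.13, 6.29 and 6.12 at day 9.5. From day 6.5 on, every array of each pregnancy day lay above every non-pregnant array, and the 4 day 9.5 arrays lay above all other arrays. The mean was then 5.85, 5.79, 5.79 and 5.73 at day 12.5, 5.61, 5.63, 5.60 and 5.71 at day 15.5 and 5.39, 5.53, 5.43 and 5.57 at day 18.5. At 10 days post partum it was 5.38, 5.32, 5.49 and 5.38, still above all 4 non-pregnant arrays by a small margin. In the transgenic line it was 5.16, 5.23, 5.17 and 5.31 in Pdx1-creLate islets and 5.14, 5.27, 5.19 and 5.27 in control littermates, which overlap.

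**Figure D1:**
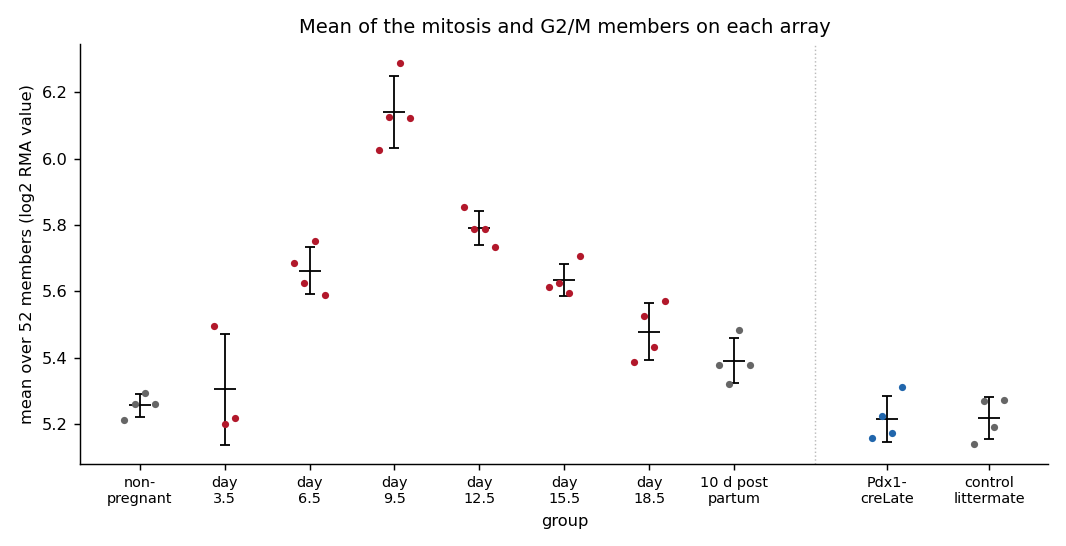
Mean log2 level over the 52 mitosis genes on each array (points), with the mean and SD of each group (bars), for the 8 C57bl6/J stages in time order and for Pdx1-creLate and control littermate islets. The 4 day 9.5 arrays (6.03 to 6.29) sit above all other arrays, and the Pdx1-creLate arrays (5.16 to 5.31) overlap the control arrays (5.14 to 5.27).

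Counted gene by gene against non-pregnant islets, 0 of 52 members were called at day 3.5, where 0.0201% of all genes were called higher and 0.0251% lower, and 9 members had an unadjusted p under 0.05, as had 20.3% of all genes. At day 6.5, 20 members rose and 0 fell, against 0.502% of all genes that rose and 0.12% that fell; the count was 12 without day 6.5 replicate 3 and 13 without non-pregnant replicate 2. At day 9.5, 49 members rose and 0 fell, against 11.6% of all genes that rose and 7.74% that fell, and the median member difference was 0.81 (1.76-fold), where the median over all genes was −0.03. The day 9.5 count was 49 without the 2 arrays of lowest acinar level and 44 with array SD as covariate. In 48 members every day 9.5 array lay above every non-pregnant array, which held for 8.97% of all genes. At day 12.5, 39 members rose (4.08% of all genes) and 0 fell (1.19%), with a median of 0.46. At day 15.5, 26 rose (3.7% of all genes) and 0 fell (4.53%), with a median of 0.35; the count was 16 without day 15.5 replicate 4 and 17 without non-pregnant replicate 1. At day 18.5, 14 rose (8.59% of all genes) and 0 fell (2.5%), with a median of 0.19, and the median over all genes was 0 at days 12.5 and 18.5 and 0.03 at day 15.5. The day 18.5 count was 6 without day 18.5 replicate 4, 9 without non-pregnant replicate 4 and 3 with array SD as covariate. The comparisons with non-pregnant islets all use the same 4 non-pregnant arrays, so their counts are not independent of each other.

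**Figure D2:**
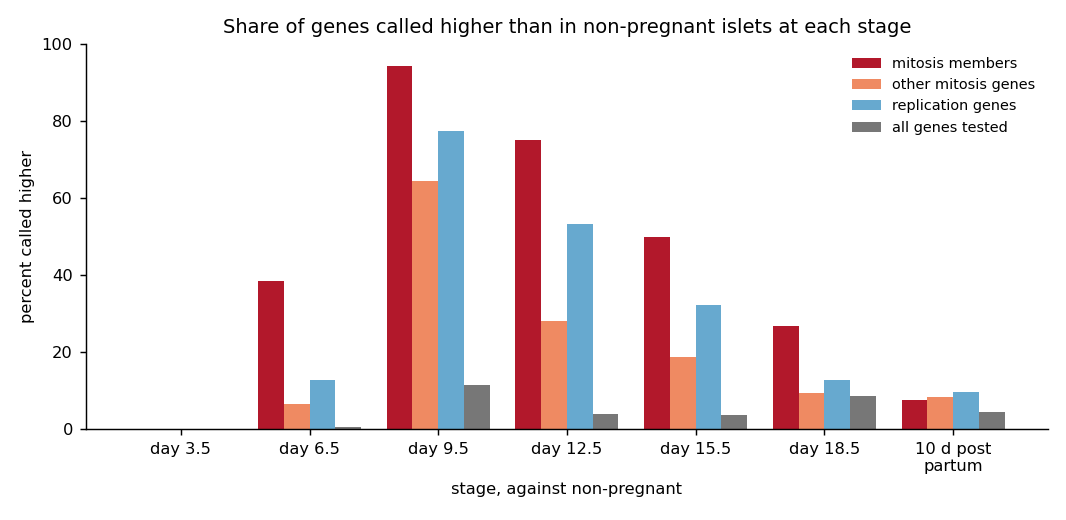
Percent of the 52 mitosis genes, of the 107 other mitosis genes and 62 replication genes described further on, and of all 19938 genes (bars), that were called higher than in non-pregnant islets (limma, adjusted p under 0.05) at each stage. The members' counts are 0, 20, 49, 39, 26 and 14 over days 3.5 to 18.5 and 4 at 10 days post partum, and the share of all genes is between 0.0201% and 11.6%.

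**Figure D3:**
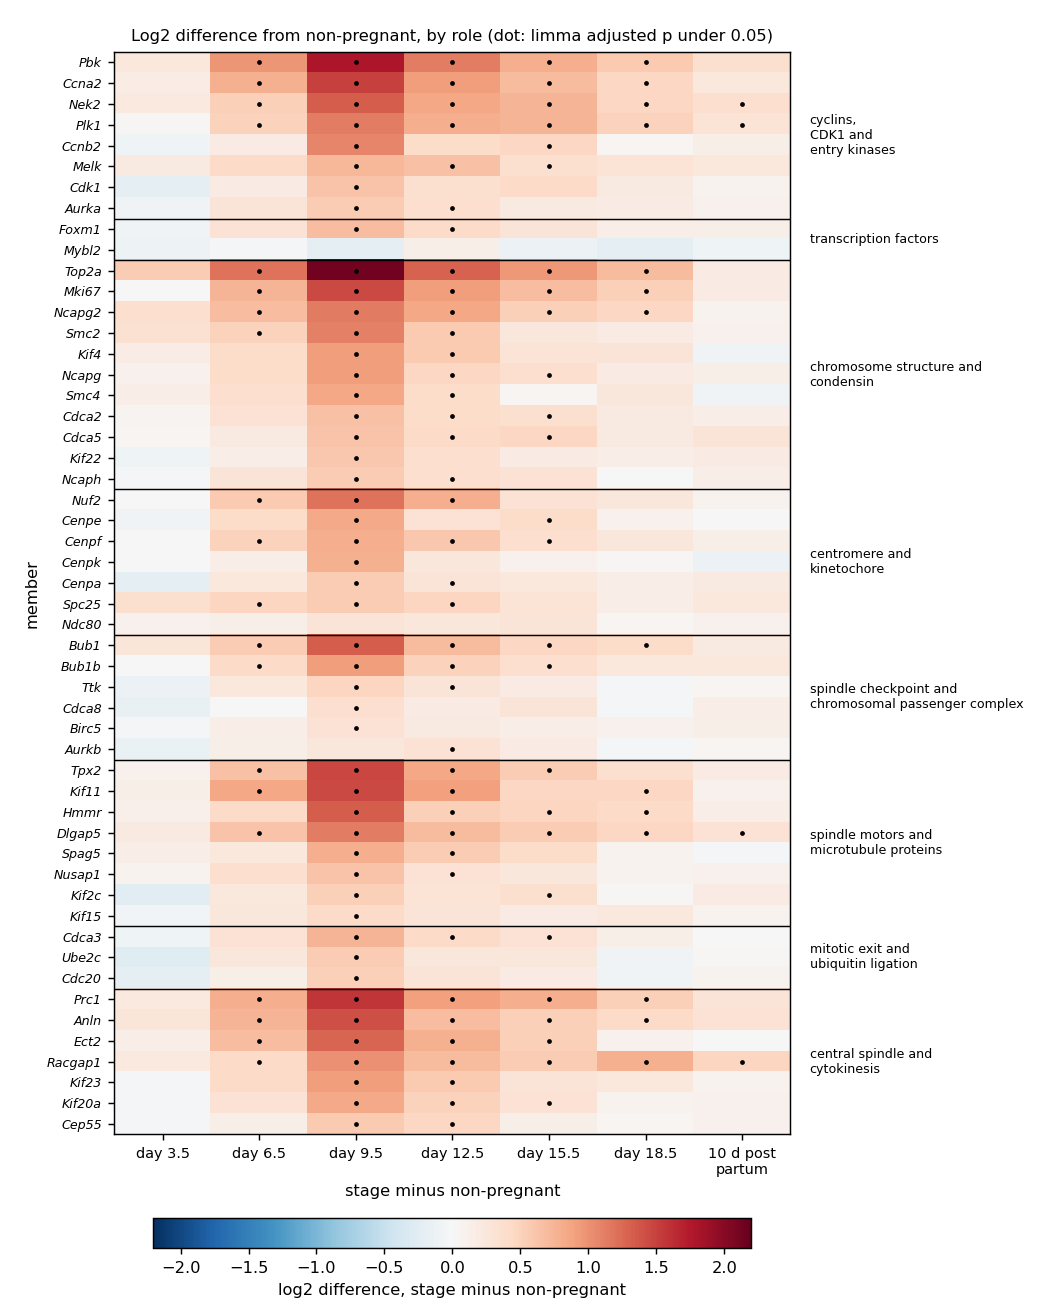
Difference of each of the 52 members from non-pregnant islets (log2, colour) at each of the 7 other C57bl6/J stages, with members grouped by role and a dot where limma's adjusted p was under 0.05. Day 9.5 is the highest stage for 49 members and holds 49 of the dots.

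The cyclins, CDK1 and the kinases of mitotic entry rose as a whole at day 9.5: 8 of 8 measured members were called, with a median of 1.10, and 4 of 8 were called at day 6.5 and 6 of 8 at day 12.5. Pbk, a mitotic kinase found in proliferating cells, had levels of 7.2, 7.6, 7.5 and 7.2 at day 9.5, against 5.4, 5.5, 5.9 and 5.6 in non-pregnant islets. The groups did not overlap, and the difference was 1.78 ± 0.16 (SE; limma adjusted p = 9.72e-10). Ccna2, cyclin A2, which partners CDK2 and CDK1 in S phase and G2, had 7.0, 7.2, 7.4 and 7.1 at day 9.5, against 5.6, 5.8, 5.8 and 5.5 in non-pregnant islets, a difference of 1.50 ± 0.12 (adjusted p = 1.16e-10). It rose as early as day 6.5 (6.4, 6.5, 6.5 and 6.4; 0.78) and was still higher at day 18.5 (6.0, 6.1, 6.0 and 6.4; 0.45). Plk1, the polo-like kinase of mitotic entry and spindle assembly, was among the tightest: 7.1, 7.2, 7.1 and 7.1 at day 9.5, against 5.9, 5.9, 6.1 and 6.1 in non-pregnant islets, a rise of 1.13 ± 0.09 (adjusted p = 1.15e-10).

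Ccnb2, a mitotic B-type cyclin, and Cdk1, the kinase it activates, were not called at day 6.5. Ccnb2 had 6.0, 6.5, 6.6 and 6.1 at day 9.5, against 5.1, 5.3, 5.2 and 5.3 in non-pregnant islets (1.08 ± 0.14, adjusted p = 1.24e-06). At day 6.5 its arrays (5.7, 5.6, 5.3 and 5.0) overlapped the non-pregnant ones, and it was called on days 9.5 and 15.5. Cdk1 had 6.5, 6.2, 6.9 and 6.5 at day 9.5, against 5.9, 5.8, 6.0 and 5.9 in non-pregnant islets (0.63 ± 0.14, adjusted p = 0.00194), and passed the test on that day alone; its day 15.5 difference of 0.43 had an adjusted p of 0.052. Aurka, the aurora kinase of the spindle poles, had the smallest rise of the group, 0.55 ± 0.09 (adjusted p = 3.59e-05). Nek2, a kinase of centrosome separation, rose by 1.33 ± 0.12 and Melk, a mitotic serine/threonine kinase, by 0.73 ± 0.11.

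Of the 2 transcription factors of the set, 1 was called at day 9.5. Foxm1, a forkhead activator of G2/M genes, had 5.9, 5.6, 6.2 and 6.1 at day 9.5, against 5.3, 5.3, 5.2 and 5.3 in non-pregnant islets, and rose by 0.68 ± 0.10 (adjusted p = 6.19e-06). It was also called at day 12.5 (0.43, adjusted p = 0.00442). Mybl2, the B-Myb subunit that joins MuvB to activate late cell cycle genes, was not called on any day. Its levels were 6.4, 6.3, 6.1 and 6.3 at day 9.5, against 6.3, 6.6, 6.4 and 6.6 in non-pregnant islets, and the arrays overlap (−0.20 ± 0.12, adjusted p = 0.249). Its highest stage was day 12.5, with 6.9, 6.3, 6.6 and 6.6 and a difference of 0.13 (adjusted p = 0.75). Of the 51 members whose group means span at least 0.3, its means were the least like those of the set, with a Pearson r of −0.07 to the mean of the members over the 10 group means.

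**Figure D4:**
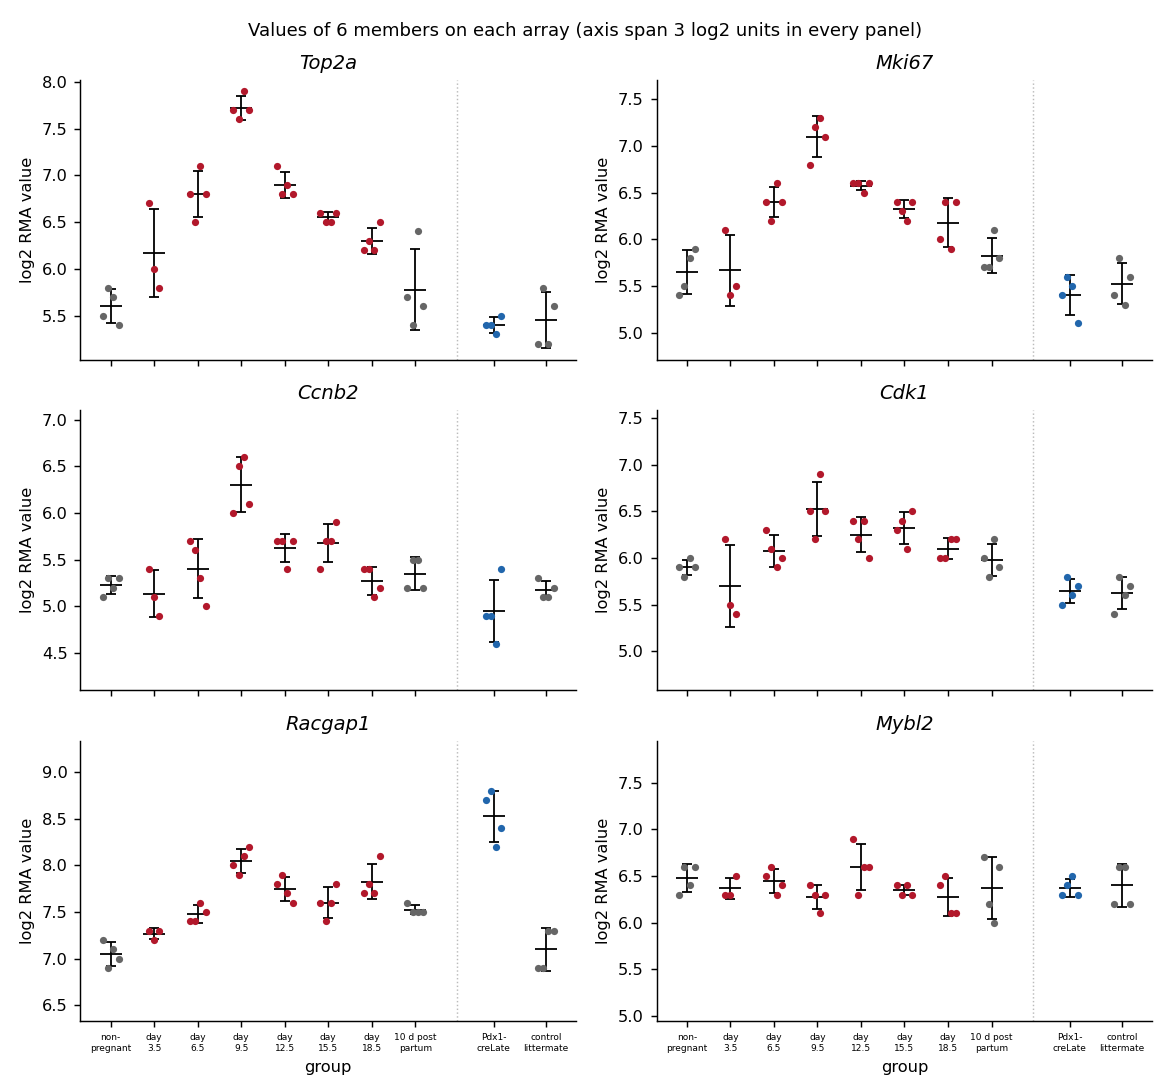
Log2 levels of Top2a, Mki67, Ccnb2, Cdk1, Racgap1 and Mybl2 on each array (points) with group mean and SD (bars), by C57bl6/J stage and for Pdx1-creLate and control littermate islets; every panel spans 3 log2 units, with pregnancy days in red, Pdx1-creLate in blue and other groups in grey. Top2a reaches 7.6 to 7.9 at day 9.5, Mybl2 shows no peak there (6.1 to 6.4), and Racgap1 is highest in Pdx1-creLate islets (8.2 to 8.8).

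Genes of chromosome structure gave the largest difference of the set, and 11 of 11 rose at day 9.5, with a median of 0.93. Top2a encodes topoisomerase II alpha, which untangles sister chromatids (probe set 10390707; GRCm38 chromosome 11, 98992947 to 99024199). Its levels were 5.5, 5.8, 5.7 and 5.4 in non-pregnant islets, 6.7, 6.0 and 5.8 at day 3.5, 6.8, 6.5, 7.1 and 6.8 at day 6.5 and 7.7, 7.6, 7.9 and 7.7 at day 9.5. They were then 7.1, 6.8, 6.9 and 6.8 at day 12.5, 6.6, 6.5, 6.5 and 6.6 at day 15.5, 6.2, 6.3, 6.2 and 6.5 at day 18.5 and 5.7, 5.4, 6.4 and 5.6 post partum. Every array from day 6.5 to day 18.5 lay above all 4 non-pregnant arrays. The difference from non-pregnant islets was 1.20 ± 0.16 at day 6.5 (adjusted p = 0.000114), 2.13 ± 0.16 at day 9.5 (adjusted p = 3.14e-11) and 0.70 at day 18.5 (adjusted p = 0.00318). The last of these had an adjusted p of 0.154 with array SD as covariate. At day 3.5 the Top2a difference of 0.57 ± 0.17 was the largest of the set and did not pass the test (adjusted p = 0.101).

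Mki67, which encodes the Ki-67 protein that coats mitotic chromosomes and is the usual stain for cycling cells, lies at GRCm38 chromosome 7, 135689784 to 135716450 (probe set 10568714). Its levels were 5.4, 5.5, 5.8 and 5.9 in non-pregnant islets, 6.1, 5.4 and 5.5 at day 3.5, 6.4, 6.2, 6.6 and 6.4 at day 6.5 and 6.8, 7.2, 7.3 and 7.1 at day 9.5. They declined through 6.6, 6.6, 6.5 and 6.6 at day 12.5 and 6.4, 6.3, 6.2 and 6.4 at day 15.5 to 6.0, 6.4, 5.9 and 6.4 at day 18.5, with 5.7, 5.7, 6.1 and 5.8 post partum. Days 6.5 to 15.5 did not overlap non-pregnant islets, while day 18.5 met them at 5.9. Mki67 rose by 0.75 at day 6.5 (adjusted p = 0.00312), 1.45 ± 0.14 at day 9.5 (adjusted p = 2.34e-09) and 0.53 at day 18.5 (adjusted p = 0.00949). The day 18.5 call was lost with array SD as covariate (adjusted p = 0.0923) and without day 18.5 replicate 4 (adjusted p = 0.0546). Of the condensin genes, whose products compact chromosomes, Ncapg2 rose by 1.15 ± 0.13 at day 9.5, Smc2 by 1.10 ± 0.12 and Smc4 by 0.85 ± 0.12. Ncaph had the smallest rise of the group (0.55 ± 0.11, adjusted p = 0.00059).

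Centromere and kinetochore genes rose in 6 of 7 cases at day 9.5, with a median of 0.78. Nuf2, a subunit of the NDC80 complex that grips microtubules, had 6.1, 6.2, 6.7 and 6.0 at day 9.5, against 5.0, 5.1, 5.2 and 4.9 in non-pregnant islets (1.20 ± 0.12, adjusted p = 4.09e-09). Cenpe, a kinetochore motor, rose by 0.83 ± 0.11 (adjusted p = 2.5e-06), and Cenpa, the centromeric histone H3 variant, by 0.55 ± 0.08. Ndc80, which encodes the partner of Nuf2, was not called at any stage in this fit. Its differences were 0.28 ± 0.12 at day 9.5 (adjusted p = 0.0924), which quantile normalization turned into a call (0.40, adjusted p = 0.0145), and 0.28 at day 15.5 (adjusted p = 0.158).

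Spc25, another NDC80 complex subunit, had a high signal and a flatter course (probe set 10483401; GRCm38 chromosome 2, 69193895 to 69206213). It had 10.3, 10.4, 10.4 and 10.5 at day 9.5, against 9.7, 9.7, 9.9 and 10.1 in non-pregnant islets, and rose by 0.55 ± 0.11 (adjusted p = 0.00105). It was called on days 6.5, 9.5 and 12.5, and its group means followed those of the set less closely (r = 0.30 over the 10 group means). In control littermates, which are not labelled as pregnant, it had 10.4, 10.4, 10.2 and 10.4, and was 0.50 higher than in non-pregnant C57bl6/J islets (adjusted p = 0.00204). Pdx1-creLate islets had 10.4, 10.2, 10.6 and 10.7, a mean of 10.5 against 10.4 at day 9.5, and these arrays overlap. The gene lies beside G6pc2, which encodes a glucose-6-phosphatase of beta cells (chromosome 2, 69211073 to 69227993). G6pc2 itself rose by 0.30 at day 9.5 (adjusted p = 0.021) and 0.40 at day 12.5 (adjusted p = 0.00484). Its part in the Spc25 values was not tested.

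Among genes of the spindle checkpoint and the chromosomal passenger complex 5 of 6 rose at day 9.5, with a median of 0.43. Bub1, the checkpoint kinase at kinetochores, had 5.4, 5.4, 5.9 and 5.7 at day 9.5, against 4.1, 4.2, 4.4 and 4.4 in non-pregnant islets (1.33 ± 0.12, adjusted p = 2.34e-09). Bub1b, the BubR1 checkpoint protein, rose by 0.93 ± 0.10 (adjusted p = 4.15e-08) and Ttk, the Mps1 kinase, by 0.48 ± 0.08. The passenger complex genes had smaller differences: Cdca8 (borealin) rose by 0.38 ± 0.09 (adjusted p = 0.00493) and Birc5 (survivin) by 0.33 ± 0.10 (adjusted p = 0.0242). Aurkb, the kinase of that complex, had 6.5, 6.4, 6.4 and 6.3 at day 9.5, against 6.0, 6.1, 6.2 and 6.3 in non-pregnant islets; the ranges meet at 6.3 (0.25 ± 0.09, adjusted p = 0.0555). It passed the test on that day under 4 alternatives (adjusted p of 0.0259 to 0.0434). In the fit used here it was called at day 12.5, its highest stage (6.5, 6.4, 6.4 and 6.6; 0.33, adjusted p = 0.0322), a call that 6 alternatives ended (adjusted p up to 0.131).

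All 8 measured genes of spindle motors and microtubule proteins rose at day 9.5, with a median of 0.96. Tpx2, which activates aurora A on the spindle, had 6.4, 7.1, 7.2 and 6.8 at day 9.5, against 5.5, 5.4, 5.4 and 5.3 in non-pregnant islets (1.48 ± 0.14, adjusted p = 4.16e-09). Its group means were the most like those of the set (r = 0.998). Kif11, the kinesin-5 motor that pushes spindle poles apart, had 5.5, 5.9, 6.2 and 6.1 at day 9.5, against 4.3, 4.9, 4.5 and 4.2 in non-pregnant islets (1.45 ± 0.15, adjusted p = 1.16e-08). Hmmr, a microtubule-associated protein of the spindle, rose by 1.33 ± 0.13 and Dlgap5, which stabilises kinetochore fibres, by 1.13 ± 0.11. Kif15, a kinesin that acts beside Kif11, had the smallest rise (0.43 ± 0.09, adjusted p = 0.00122).

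The 3 genes of mitotic exit and ubiquitin ligation rose at day 9.5 with a median of 0.55, and 1 of the 3 was called at day 12.5. Cdc20, an activator of the anaphase-promoting complex, had 6.6, 6.7, 6.5 and 6.8 at day 9.5, against 6.3, 6.0, 6.1 and 6.1 in non-pregnant islets (0.53 ± 0.13, adjusted p = 0.00532; 0.334 with array SD as covariate). Ube2c, the ubiquitin-conjugating enzyme of that complex, had 6.7, 6.6, 6.6 and 6.2 at day 9.5, against 6.0, 5.8, 6.1 and 6.0 in non-pregnant islets (0.55 ± 0.10, adjusted p = 0.000234). Both groups of arrays lay apart for each gene. Cdca3, a trigger of mitotic entry, rose by 0.75 ± 0.09 (adjusted p = 6.47e-07) and is the member called at day 12.5 (0.43).

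Genes of the central spindle and cytokinesis rose in 7 of 7 cases at day 9.5, with a median of 1.00, and 7 of 7 were also called at day 12.5. Prc1, which bundles the antiparallel microtubules of the central spindle, had 6.5, 6.5, 6.8 and 6.6 at day 9.5, against 5.0, 5.1, 5.2 and 4.8 in non-pregnant islets (1.58 ± 0.13, adjusted p = 2.53e-10). Anln, the contractile ring scaffold anillin, had 5.8, 6.2, 6.2 and 6.2 at day 9.5, against 4.8, 4.8, 4.7 and 4.4 in non-pregnant islets (1.43 ± 0.12, adjusted p = 1.3e-10). Ect2, the exchange factor that activates RhoA at the cleavage furrow, rose by 1.28 ± 0.11 (adjusted p = 6.26e-10). Kif23, a kinesin of centralspindlin, rose by 0.93 ± 0.12, Kif20a, a kinesin of the central spindle, by 0.83 ± 0.10 and Cep55, an abscission protein, by 0.58 ± 0.12 (adjusted p = 0.00149).

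Racgap1, the GTPase-activating subunit of centralspindlin, had the largest day 18.5 difference of the set (probe set 10432511; GRCm38 chromosome 15, 99620496 to 99651656). Its levels were 7.2, 6.9, 7.1 and 7.0 in non-pregnant islets, 8.0, 7.9, 8.1 and 8.2 at day 9.5, 7.6, 7.4, 7.6 and 7.8 at day 15.5, 7.7, 7.8, 7.7 and 8.1 at day 18.5 and 7.6, 7.5, 7.5 and 7.5 post partum. That day 18.5 difference was 0.78 ± 0.09 (adjusted p = 2.12e-07), and the day 9.5 difference was 1.00 ± 0.09 (adjusted p = 1.43e-09). The post partum arrays also lay above every non-pregnant array, a difference of 0.48 (adjusted p = 0.000642). Its group means had an r of 0.32 with the mean of the members over the 10 groups, which include Pdx1-creLate islets, where Racgap1 was highest (mean 8.53).

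The onset of the rise lay between days 3.5 and 9.5. Of the 52 members, 20 were first called at day 6.5, 29 at day 9.5 and 1 (Aurkb) at day 12.5, while Ndc80 and Mybl2 were called on no day, apart from Ndc80 at day 9.5 after quantile normalization. The first day called depends on the threshold, and differences in onset between members were not tested. At day 6.5, 50 of the 52 differences from non-pregnant islets were already above 0. The step to day 6.5, with day 3.5 as its start, had 18 members higher and 0 lower, against 0.808% of all genes higher and 0.446% lower, and all 52 differences were above 0 (median 0.32). Pbk had 6.6, 6.5, 6.7 and 6.5 at day 6.5, against 6.3, 5.5 and 5.7 at day 3.5 (0.74 ± 0.17, adjusted p = 0.0265). Mki67 rose over this step by 0.73 ± 0.15 (adjusted p = 0.0133), Kif11 by 0.73 ± 0.16 (adjusted p = 0.0186), Ccna2 by 0.62 ± 0.13 (adjusted p = 0.0153) and Prc1 by 0.59 ± 0.14 (adjusted p = 0.0302). Day 3.5 has 3 arrays and they differ: replicate 1 was the highest for 41 of the 52 members and has the lowest acinar level of the series, 5.56, against 8.30 and 7.43 on the other day 3.5 arrays. The count was 21 without the 2 arrays of lowest acinar level, 0 without day 3.5 replicate 2, 1 without day 3.5 replicate 3, 9 without day 6.5 replicate 1, 8 without day 6.5 replicate 3 and 0 with the acinar level as a covariate.

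From day 6.5 to day 9.5 the step was larger: 42 members rose and 0 fell, against 10.5% of all genes that rose and 6.93% that fell, with a median of 0.48 and 51 of 52 differences above 0. Top2a rose over this step by 0.93 ± 0.16 (adjusted p = 0.00019), Hmmr by 0.90 ± 0.13 (adjusted p = 2.49e-05), Ccnb2 by 0.90 ± 0.14 (adjusted p = 4.41e-05), Tpx2 by 0.83 ± 0.14 (adjusted p = 0.000185) and Nek2 by 0.80 ± 0.12 (adjusted p = 3.61e-05). The count was 26 with array SD as covariate. Day 9.5 was the highest stage of 49 members; Ndc80 was equally high at days 9.5 and 15.5, and Mybl2 and Aurkb were highest at day 12.5. Within day 9.5, replicate 3 was the highest for 29 members and replicate 1, of low acinar level, the lowest for 22.

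The decline began in the step to day 12.5, where 24 members were lower than at day 9.5 and 0 higher, against 1.51% of all genes lower and 1.72% higher, with a median of −0.31 and 50 of 52 differences below 0. Because day 9.5 was the highest stage of most members in these same data, a fall from it is partly fixed. Top2a fell by 0.83 ± 0.16 (adjusted p = 0.0102), Hmmr by 0.80 ± 0.13 (adjusted p = 0.00516), Anln by 0.75 ± 0.12 (adjusted p = 0.00269), Ccnb2 by 0.68 ± 0.14 (adjusted p = 0.0121) and Prc1 by 0.68 ± 0.13 (adjusted p = 0.0102). This count was 2 without day 9.5 replicate 3, 9 without day 9.5 replicate 4, 5 without day 12.5 replicate 4, 10 in a fit of these 2 groups alone and 1 with array SD as covariate. Between days 12.5 and 15.5 no member passed limma's test in either direction and neither did any other gene (0% of all genes); 13 members had an unadjusted p under 0.05, as had 11.8% of all genes, and the median was −0.15.

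In the step to day 18.5, 4 members fell, against 4.21% of all genes, and 0 rose, against 6.08%. The members that fell were Ect2 (−0.42 ± 0.11, adjusted p = 0.0257), Cdca8 (−0.33 ± 0.09, adjusted p = 0.0313), Ube2c (−0.33 ± 0.10, adjusted p = 0.0409) and Kif2c, a kinesin that depolymerises microtubules (−0.33 ± 0.11, adjusted p = 0.0471). The count was 0 without any 1 of day 15.5 replicates 2 and 3 and day 18.5 replicates 1, 3 and 4, and 2 without day 15.5 replicate 4. In the step from day 18.5 to post partum islets 4 members fell and 0 rose, against 18.4% of all genes that fell and 11.8% that rose, so the members' share is no larger than the background. These were Top2a (−0.53 ± 0.16, adjusted p = 0.0159), Ncapg2 (−0.38 ± 0.13, adjusted p = 0.0261), Smc4 (−0.33 ± 0.12, adjusted p = 0.0355) and Racgap1 (−0.30 ± 0.09, adjusted p = 0.0157). Without day 18.5 replicate 4 the count was 0, without post partum replicate 2 or 4 it was 1, and without post partum replicate 3 it was 9.

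Set against the peak itself, later stages were lower. Day 9.5 was taken as the reference because it was the highest stage of most members in these same data. A fall from it is therefore partly fixed by that choice. Relative to day 9.5, 42 members were lower at day 15.5 (17.8% of all genes; median −0.44), 44 at day 18.5 (1.18% of all genes; median −0.63) and 48 at 10 days post partum (24.6% of all genes; median −0.74). At each of these stages 0 members were higher, against 17.4%, 0.888% and 22.9% of all genes in the same order. With array SD as covariate these counts were 2, 44 and 14. These comparisons share the 4 day 9.5 arrays. An F test among the 6 pregnancy days called 49 members, against 38.6% of all genes; the members it left out were Birc5, Ndc80 and Mybl2.

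The last pregnancy day on which a member was called was also counted, and differences in duration were not tested. Day 9.5 was the last pregnancy day called for 8 members, day 12.5 for 15, day 15.5 for 13 and day 18.5 for 14. Ccna2, Plk1, Pbk, Nek2, Mki67, Top2a, Ncapg2, Bub1, Dlgap5, Prc1, Racgap1 and Anln, 12 members in all, were called on each day from 6.5 to 18.5. The day 18.5 calls of Mki67, Pbk, Prc1 and Top2a were lost under 1 or more alternatives, with adjusted p up to 0.0923, 0.202, 0.198 and 0.154 in that order. At 10 days post partum 4 members were higher than in non-pregnant islets and 0 lower, against 4.46% of all genes higher and 7.78% lower, with a median of 0.13 where the median of all genes was 0.03. These were Racgap1, Nek2 (0.38, adjusted p = 0.0384), Dlgap5 (0.33, adjusted p = 0.0394) and Plk1 (0.30, adjusted p = 0.026). Without non-pregnant replicate 2 the count was 1, and it was 2 without non-pregnant replicate 1 or post partum replicate 1, 3 or 4. Of other cell markers, 6 of 12 endothelial and 5 of 12 stellate and fibroblast markers were lower post partum.

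Pdx1-creLate islets were compared with control littermates to ask what the transgenic line itself does. Neither group is labelled as pregnant. Of the 52 members 1 rose, Racgap1, and 0 fell, against 2.86% of all genes higher and 3.72% lower; 6 members had an unadjusted p under 0.05, as had 18.8% of all genes, and the median difference was −0.03, equal to that over all genes. Racgap1 had 8.7, 8.8, 8.2 and 8.4 in Pdx1-creLate islets, against 6.9, 6.9, 7.3 and 7.3 in control littermates. The groups did not overlap, and the difference was 1.43 ± 0.14 (2.69-fold, adjusted p = 1.25e-05), which was 1.33 to 1.53 when any 1 array was left out. In size it exceeded the rise of Racgap1 at day 9.5 (1.00), but the difference of the 2 effects, 0.43 ± 0.16, did not pass the test (adjusted p = 0.0674). It passed under 7 alternatives (adjusted p of 0.0137 to 0.0496), among them quantile normalization (0.52, adjusted p = 0.0179).

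None of the leading pregnancy genes passed the test between the 2 genotypes. Top2a had 5.4, 5.4, 5.3 and 5.5 in Pdx1-creLate islets, against 5.2, 5.8, 5.2 and 5.6 in control littermates (−0.05), and Mki67 had 5.4, 5.6, 5.5 and 5.1 in Pdx1-creLate islets, against 5.4, 5.8, 5.3 and 5.6 in control littermates (−0.13, adjusted p = 0.666). For both genes the arrays overlap. Ccnb2 had 4.9, 4.9, 4.6 and 5.4 in Pdx1-creLate islets, against 5.3, 5.1, 5.1 and 5.2 in control littermates (−0.23), also with overlap. Nek2 had the largest difference after Racgap1 (0.33, adjusted p = 0.192), and Bub1 the lowest (−0.30, adjusted p = 0.215). The beta cell marker mean was 11.1 ± 0.07 in Pdx1-creLate islets and 11.4 ± 0.02 in control littermates (SD, n = 4 each), and the acinar mean was 8.68 to 10.5 in Pdx1-creLate islets and 8.55 to 9.76 in control littermates. The alpha, delta and PP cell mean was 10.3 to 10.7 in Pdx1-creLate islets and 10.9 to 11.2 in control littermates, the duct mean 6.15 to 6.35 in Pdx1-creLate islets and 5.90 to 6.09 in control littermates, and the stellate and fibroblast mean 6.42 to 6.65 in Pdx1-creLate islets and 6.67 to 6.90 in control littermates. These 3 means and the beta cell mean did not overlap between the genotypes. The part of these cell types in the values was not tested.

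**Figure D5:**
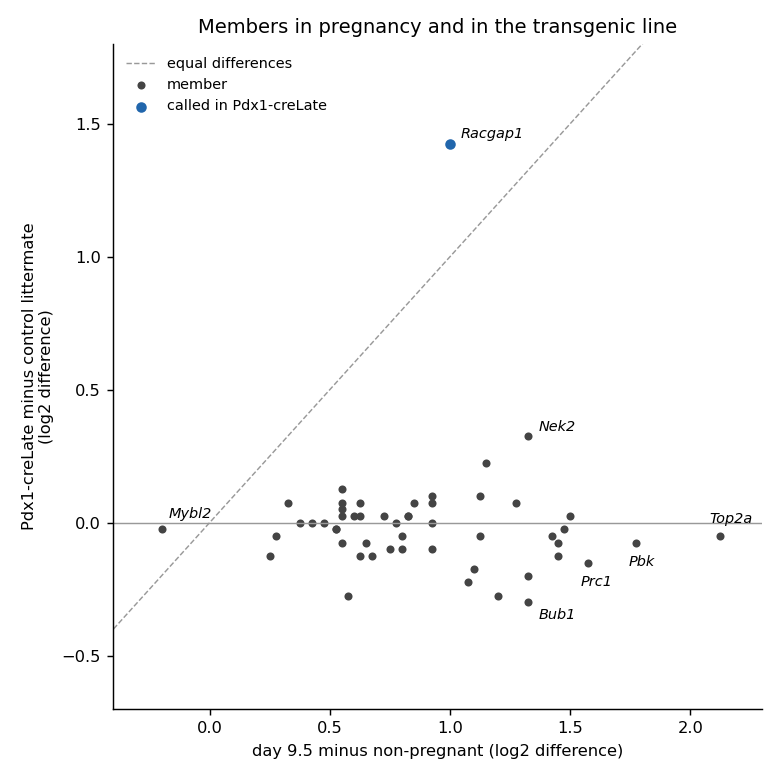
Each of the 52 members by its day 9.5 difference from non-pregnant islets (x axis, log2) and its difference between Pdx1-creLate and control littermate islets (y axis, log2), points being genes and the dashed line marking equal differences. Members spread from −0.20 to 2.13 along the x axis and lie between −0.30 and 0.33 on the y axis, apart from Racgap1 at 1.43.

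A test of the difference between the 2 effects, the transgenic effect minus the day 9.5 effect in 1 model, gave 44 members lower and 0 higher (1, Racgap1, under 7 alternatives), against 8.49% of all genes lower and 4.04% higher, with a median of −0.81. The values were −2.18 ± 0.23 for Top2a (adjusted p = 4.56e-09), −1.85 ± 0.24 for Pbk (adjusted p = 5.22e-07), −1.73 ± 0.18 for Prc1 (adjusted p = 8.26e-09), −1.63 ± 0.18 for Bub1 (adjusted p = 3.13e-08) and −1.58 ± 0.20 for Mki67 (adjusted p = 3.34e-07). Day 9.5 was the highest stage of most members in these same data. A lower transgenic effect is therefore partly fixed by the choice of that day. Between control littermates and non-pregnant C57bl6/J islets 1 member, Spc25, was higher, against 13.1% of all genes higher, and 2 members, Kif2c (−0.40, adjusted p = 0.0054) and Ncaph (−0.33, adjusted p = 0.0461) were lower, against 6.96% of all genes lower. These groups differ in strain history, as the littermates come from a backcrossed line, and perhaps in sex, age and normalization run. These cannot be told apart here.

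Other genes of the same processes were counted by stage as well. Like the members, these lists were chosen with earlier results of these data known, so their counts are no independent check. Of a further 107 measured genes of mitosis and G2/M, 0 were higher at day 3.5, 7 at day 6.5, 69 at day 9.5, 30 at day 12.5, 20 at day 15.5, 10 at day 18.5 and 9 post partum, with a median of 0.30 at day 9.5. The shares of all genes higher at these stages, 0.0201% at day 3.5, 0.502% at day 6.5, 11.6% at day 9.5, 4.08% at day 12.5, 3.7% at day 15.5, 8.59% at day 18.5 and 4.46% post partum, are the background to these counts. At each of days 15.5, 18.5 and post partum 2 of the 107 were lower, and 0 at the earlier stages. Those with the largest rise at day 9.5 were Knstrn, a kinetochore-associated spindle protein (1.45 ± 0.15), Arhgap11a, a RhoA regulator of cytokinesis (1.43 ± 0.13), Stmn1, the microtubule destabiliser stathmin (1.35 ± 0.11), Knl1, a kinetochore scaffold (1.18 ± 0.15), and Mad2l1, a checkpoint protein (1.15 ± 0.12). Of 62 measured genes of DNA replication and S phase, 0, 8, 48, 33, 20 and 8 were higher over days 3.5 to 18.5 in order and 6 post partum, with a median of 0.48 at day 9.5; 1 was lower post partum and 0 at the other stages. They were led by Hells, a chromatin remodeller (1.15 ± 0.15), Mcm3, a subunit of the replicative helicase (1.08 ± 0.13), Rrm2, a subunit of ribonucleotide reductase (1.05 ± 0.11), Pcna, the sliding clamp (0.98 ± 0.10), and Fen1, a flap endonuclease (0.90 ± 0.07). In Pdx1-creLate against control littermate islets, 2 further mitosis genes were higher and 2 lower, and 0 replication genes were higher and 1 lower, against 2.86% of all genes higher and 3.72% lower.

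Over all genes outside the set, those whose 10 group means were most like the mean of the members were ranked by Pearson r among the 15698 genes whose group means span at least 0.3. The first 10 were D17H6S56E-5 (0.994), Kntc1 (0.993), Knl1 (0.99), Mcm3 (0.979), Shcbp1 (0.976), Hells (0.973), Depdc1a (0.972), Mcm5 (0.969), Psmb5 (0.969) and Brca1 (0.968). Kntc1 and Knl1 encode kinetochore proteins, Mcm3 and Mcm5 helicase subunits, Brca1 a DNA repair protein and Psmb5 a proteasome subunit. These correlations describe 10 means that share arrays and normalization, and carry no test.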

How the data were processed

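Total RNA of mouse islets was measured on 39 arrays in 10 groups. The authors deposited log2 values per probe set, made with RMA in Affymetrix Expression Console per the submitters' processing notes; RMA corrects background, quantile-normalizes and summarises probes. The software version, and whether all arrays were normalized in 1 run, are not given in the sources used here. Deposited values carry 1 decimal, so small differences move in steps.

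Of 35556 probe sets, 21789 have 1 symbol in the platform annotation, 1621 several and 12146 none; the highest-mean probe set per symbol left 19938 genes, with no filter on dim genes. Linear models (limma 3.58.1, R 4.3.3) used the 31 arrays of the 8 C57bl6/J groups, the 8 arrays of the transgenic comparison, and both together where the 2 effects were compared; p-values were adjusted over all genes. Python 3.11.15, pandas 2.3.3, numpy 2.4.6 and matplotlib 3.10.9 made the summaries and figures. The number of arrays limits the precision. Scripts were tested on simulated data. The members and the other lists were chosen with earlier results of these data known. In each role the 2 members with the largest and the 1 with the smallest day 9.5 difference were named, with members called post partum or in the transgenic comparison, the steepest steps, members with another highest stage and those never called; Plk1, Ccnb2, Cdk1 and other members were added freely. Pairing by replicate number was checked: of 171 pairs of same-numbered arrays 25 correlated over 0.1 in their deviations from the group means (median r 0.01). No pairing by number was seen, though such correlations cannot show that same-numbered arrays were handled apart. Alternatives were filters, normalizations, covariates, array weights, the fitted groups and leaving out each array.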

Additional observations from a re-analysis of the deposited data

Results flagged for a closer look

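Of 189 groups of 4 arrays tested for a lone array over the members described with their values, 23 had 1 array apart from the other 3, where chance gives about 1 in 20; values of 1 decimal make such gaps easy, since 3 arrays often share a value. Lone high arrays at day 6.5 were replicate 2 for Cdc20 (6.4, others 6.2) and Nuf2 (5.7, others 5.6), at day 9.5 replicate 2 for Plk1 (7.2, others 7.1) and at day 12.5 replicate 1 for Pbk (6.8, others 6.7). At day 15.5 they were replicate 4 for Pbk (6.7, others 6.3) and Kif11 (5.0, others 4.9), replicate 1 for Spc25 (10.3, others 10.1) and replicate 2 for Foxm1 (5.7, others 5.5). At day 18.5 they were replicate 4 for Bub1 (4.9, others 4.6) and replicate 2 for Tpx2 (5.9, others 5.7). Post partum they were replicate 3 for Ccna2 (6.2, others 5.8) and replicate 1 for Racgap1 (7.6, others 7.5) and Nuf2 (5.2, others 5.1). Pdx1-creLate replicate 4 was high for Ube2c (6.0, others 5.9), control littermate replicate 4 for Ccna2 (5.6, others 5.5) and control littermate replicate 1 for Cdc20 (6.3, others 6.1). Lone low arrays were day 9.5 replicate 1 for Anln (5.8, others 6.2), day 12.5 replicate 3 for Mki67 (6.5, others 6.6) and Ccnb2 (5.4, others 5.7), day 12.5 replicate 4 for Cdc20 (5.9, others 6.5 to 6.6), control littermate replicate 3 for Spc25 (10.2, others 10.4) and Foxm1 (5.2, others 5.4), and non-pregnant replicate 3 for Foxm1 (5.2, others 5.3).

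The effect of the transgenic line and that of day 9.5 differed by the test of the difference for 44 members, all lower in the transgenic effect. The values were −2.18 for Top2a, −1.85 for Pbk, −1.73 for Prc1, −1.63 for Bub1 and −1.58 for Mki67. This direction is partly fixed, since day 9.5 was the highest stage of most members in these same data.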

How the results depend on the processing

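No member fell against non-pregnant islets on any pregnancy day under any alternative run. Quantile normalization gave a median of 0.13 at day 3.5 and 0.90 at day 9.5, 3 members higher in the step from day 3.5 to 6.5, 0 lower in the step from day 15.5 to 18.5, medians of −0.20 for the step to post partum, −0.59 for day 15.5 and −0.83 for post partum against day 9.5, 1 member higher in the transgenic minus the day 9.5 effect and 1 lower in control littermates against non-pregnant islets. With array SD as a covariate the counts were 3 at day 18.5, 26 from day 6.5 to 9.5 (median 0.38), 1 from day 9.5 to 12.5, 0 from day 15.5 to 18.5 (median −0.25), 0 from day 18.5 to post partum, 2 at day 15.5 and 14 post partum against day 9.5 (median −0.59), with 1 higher in the transgenic minus the day 9.5 effect; Smc4 turned to 0.11 (adjusted p = 0.774) in the step to post partum. With the acinar level as a covariate the step from day 3.5 to 6.5 had 0 members higher (median 0.44), and a median of 0.43 without the 2 arrays of lowest acinar level, an alternative chosen after seeing the data. Centring arrays on their medians gave 8 members from day 3.5 to 6.5, 1 from day 15.5 to 18.5 and 8 from day 18.5 to post partum. Fits of only the groups compared gave 1 member post partum, 3 from day 3.5 to 6.5, 10 from day 9.5 to 12.5 and 1 lower in control littermates. All 39 arrays in 1 model gave 2 post partum, array weights 10 from day 15.5 to 18.5 and 1 lower in control littermates, trended and robust variances 1 member higher in the transgenic minus the day 9.5 effect, and leaving out the dimmest 25% of genes 1 lower in control littermates. The cause of these shifts was not tested.

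Leaving out 1 array at a time gave 12 to 19 members higher at day 6.5, 48 to 49 at day 9.5, 31 to 36 at day 12.5, 16 to 26 at day 15.5, 6 to 15 at day 18.5 and 1 to 5 post partum. For the steps it gave 0 to 19 from day 3.5 to 6.5 (median 0.28 to 0.43, the highest without day 3.5 replicate 1), 33 to 43 from day 6.5 to 9.5, 2 to 25 lower from day 9.5 to 12.5, 0 to 6 lower from day 15.5 to 18.5 and 0 to 9 lower and 0 to 1 higher from day 18.5 to post partum. It gave 41 to 46 lower and 0 to 1 higher in the transgenic minus the day 9.5 effect, and 1 to 2 higher and 1 to 3 lower in control littermates against non-pregnant islets. Of 72 named differences 29 lost their call under at least 1 alternative: Cdc20, Kif15 and Ncaph at day 9.5 (adjusted p up to 0.334, 0.0767 and 0.0543), Aurkb at day 12.5, Mki67, Pbk, Prc1 and Top2a at day 18.5, Nek2, Dlgap5 and Plk1 post partum, and every named step except those from day 6.5 to 9.5. At day 9.5, 2 named differences gained calls, 5 in all: Ndc80 after quantile normalization and Aurkb under 4 alternatives.

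With replicate number as a block the counts higher than in non-pregnant islets were 0, 19, 49, 38, 29 and 14 over days 3.5 to 18.5 and 4 post partum, and Kif2c (−0.33 in the step to day 18.5) lost its call; pairing by number was not borne out.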
